A study of Homo sapiens with 6 samples.

Results

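RNA sequencing followed 10 genes of the Hippo pathway in 2 human embryonic stem cell lines, Royan H6 (called RH6 here) and Royan H5 (RH5). They are the coactivators YAP1 and WWTR1 (which encodes TAZ), the DNA-binding partners TEAD1 to TEAD4, and the pathway's targets CTGF (CCN2), CYR61 (CCN1), AMOTL2 and LATS2. They were taken by symbol from the deposited count table. All 10 were found among its 63677 genes, and all 10 passed the filter on low counts that left 19434 genes for testing.

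Naive RH6 cells (2 libraries, passage 10) and naive RH5 cells (2 libraries, passage 17) were made with the 2a2iL condition and then grown in 2iL medium, with passage by trypsin. Primed RH6 cells (1 library, passage 20) and primed RH5 cells (1 library, passage 16) were kept in medium with bFGF. All groups had a feeder layer of inactivated mouse embryonic fibroblasts. Because each state had its own medium, state and medium cannot be told apart. No source states whether the naive duplicates are separate cultures. The p-values therefore measure how far these libraries vary, and that variation may be technical.

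In the Hippo pathway the kinases STK3 and STK4, with SAV1, activate the kinases LATS1 and LATS2, which phosphorylate YAP and TAZ and keep them out of the nucleus. YAP and TAZ that escape enter the nucleus and, bound to TEAD proteins, raise the transcription of genes such as CTGF and CYR61. LATS2 and AMOTL2 are targets as well as inhibitors of YAP, which makes them a negative feedback. In the mouse preimplantation embryo YAP and TEAD4 act in the outer cells that form trophectoderm. Counts of mRNA do not measure the phosphorylation or location of YAP.

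The TEAD proteins bind the core motif GGAATG, read on either strand. The 250 bases before the start of CTGF and of AMOTL2 are shown because these are the target genes with the largest changes among the 10. That of ANKRD1, the further target that changed most, is shown beside them. Sequences are RefSeq's, build GRCh38.p14, from tables that held 7 of the 10 genes. Each is written 5′ to 3′ on the strand of the gene, which is the minus strand for all of them, with GGAATG or its reverse complement CATTCC in capitals.
CTGF (CCN2), chr6:131951373-131951622: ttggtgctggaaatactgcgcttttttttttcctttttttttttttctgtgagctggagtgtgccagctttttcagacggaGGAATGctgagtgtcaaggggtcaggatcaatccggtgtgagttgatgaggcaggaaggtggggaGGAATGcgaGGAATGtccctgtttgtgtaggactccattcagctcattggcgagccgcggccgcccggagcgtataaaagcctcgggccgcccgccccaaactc
AMOTL2, chr3:134374448-134374697: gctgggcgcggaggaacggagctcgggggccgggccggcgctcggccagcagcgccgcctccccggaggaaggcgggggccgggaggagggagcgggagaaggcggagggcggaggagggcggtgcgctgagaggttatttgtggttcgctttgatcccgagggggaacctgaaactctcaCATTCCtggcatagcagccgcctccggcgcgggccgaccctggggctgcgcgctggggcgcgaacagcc
ANKRD1, chr10:90921088-90921337: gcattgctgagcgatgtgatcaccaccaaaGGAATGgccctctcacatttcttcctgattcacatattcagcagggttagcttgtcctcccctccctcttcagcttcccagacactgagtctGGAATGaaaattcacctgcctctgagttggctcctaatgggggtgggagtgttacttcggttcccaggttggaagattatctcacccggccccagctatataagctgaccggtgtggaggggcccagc
CTGF held GGAATG 3 times, starting 169, 104 and 95 bases before the start. AMOTL2 held it once, as CATTCC, at 1 of its 2 annotated starts, and ANKRD1 held it at 220 and 128 bases. YAP1 also held it once, so 3 of the 10 promoter entries of these 7 genes had a match. Among 35116 RefSeq promoters of the same length, 11.9% held the motif and 0.0826% held it 3 or more times. The genes WWTR1, TEAD2, TEAD3 and LATS2 had no match in these windows. A match describes the letters only.

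Libraries held 13457979 to 14663982 counts. Levels are given as CPM, the count of a gene relative to its library total after TMM scaling, and differences as log2 fold changes with their standard error (SE) from edgeR's quasi-likelihood test. The word called marks an adjusted p below 0.05, with adjustment over all 19434 genes. Pluripotency genes were present in every library, with POU5F1 at 310 to 504 CPM. Of the naive-state genes, DNMT3L stood at 21.4 to 26.8 CPM in naive and 0.403 to 0.58 CPM in primed cells, while KLF17 reached at most 1.34 CPM in naive cells and was at 0 in both primed libraries. DPPA5 had 1 count in all 6 libraries together. In such bulk RNA, fewer cells of a type and less RNA per cell cannot be told apart.

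The first question was how the 10 genes differed between naive and primed cells over both lines. The target genes AMOTL2, CTGF, CYR61 and LATS2 rose in naive cells, as did TEAD1 and, by less, WWTR1. TEAD2 fell, and YAP1, TEAD3 and TEAD4 were not called. That made 6 genes higher and 1 lower of 10, against 25.7% of all genes tested called, 12.1% higher and 13.6% lower. The median log2 fold change was 0.64 over the 10 genes and -0.0065 over all genes tested. With the naive duplicates summed, AMOTL2 and CYR61 were still called, and with no line term AMOTL2, WWTR1 and LATS2. The 4 naive libraries lay above both primed libraries for 7 of the 10 genes and below them for 1, and 21.5% and 22.9% of all genes tested did so. The exact permutation of 4 against 2 libraries cannot give a one-sided p under 0.067 for a single gene.

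**Figure D1:**
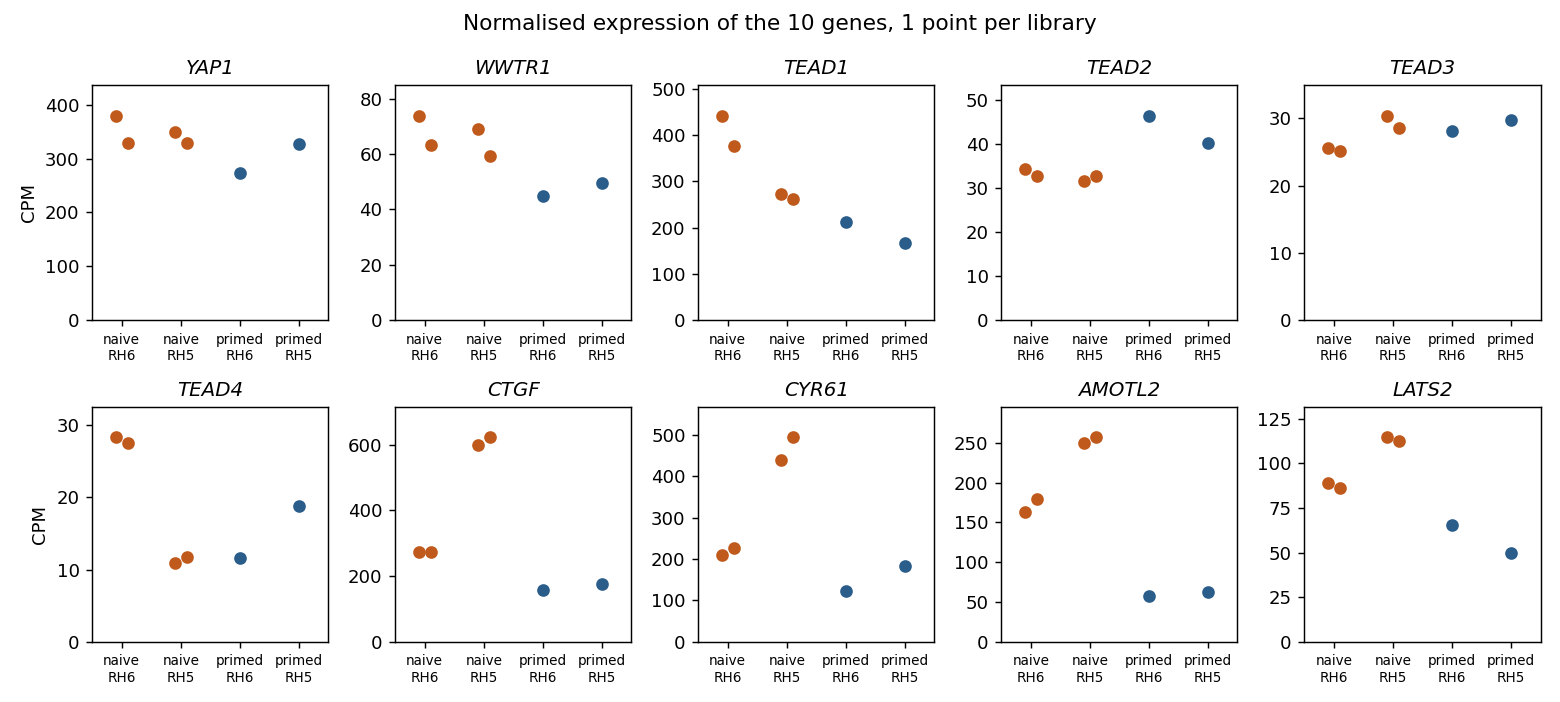
Each panel plots 1 gene, with CPM on a linear axis from 0 and 1 point per library for naive RH6, naive RH5, primed RH6 and primed RH5 cells. AMOTL2, CTGF and CYR61 stand highest in naive RH5, TEAD1 and TEAD4 in naive RH6.

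Among the coactivators, YAP1 (ENSG00000137693) stood at 380 and 330 CPM in naive RH6 and 350 and 328 CPM in naive RH5, against 274 CPM in primed RH6 and 327 CPM in primed RH5. The naive and primed values nearly met in RH5. The log2 fold change, 0.21 ± 0.12, missed the threshold (adjusted p = 0.253). In RH6 alone it was 0.37 ± 0.13 (adjusted p = 0.0441), and it lost that call without naive RH6 replicate 1 (adjusted p = 0.132), without naive RH5 replicate 1 (0.0524), with DESeq2 (0.057) and with upper-quartile factors (0.117). Those factors put the median of all genes in RH6 at -0.106 on the log2 scale.

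WWTR1 (ENSG00000018408) had 74.0 and 63.3 CPM in naive RH6 and 69.0 and 59.3 CPM in naive RH5, against 44.8 CPM in primed RH6 and 49.5 CPM in primed RH5. All naive values exceeded both primed ones, by 0.49 ± 0.13 on the log2 scale (adjusted p = 0.033). That call was lost without naive RH6 replicate 1 (adjusted p = 0.0784), naive RH6 replicate 2 (0.0731) or naive RH5 replicate 1 (0.109). It was also lost with upper-quartile factors (0.0523) and with the naive duplicates summed (0.186). WWTR1 was called under 7 of 13 alternatives, and its estimate was 0.38 without primed RH6. Per kilobase of exon in GENCODE release 29, YAP1 was the more abundant coactivator, at 43.5 to 60.3 CPM per kb over all libraries, against 5.33 to 8.79 CPM per kb for WWTR1. WWTR1 made up 11.9% to 12.9% of their sum in naive libraries and 10.2% and 10.9% in primed ones.

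The TEAD genes, which encode the DNA-binding part of the complex, went different ways. TEAD1 (ENSG00000187079) had 443 and 377 CPM in naive RH6 and 272 and 262 CPM in naive RH5, against 212 CPM in primed RH6 and 168 CPM in primed RH5. It was higher in every naive library than in either primed one, by 0.81 ± 0.12 on the log2 scale (adjusted p = 0.00413). It was called in RH6, at 0.95 ± 0.13, and in RH5, at 0.67 ± 0.13. The call over both lines was lost with no line term (adjusted p = 0.0537) and with the naive duplicates summed (0.0628).

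TEAD2 (ENSG00000074219) had 34.3 and 32.6 CPM in naive RH6 and 31.5 and 32.6 CPM in naive RH5, against 46.4 CPM in primed RH6 and 40.1 CPM in primed RH5. It was the only one of the 10 genes lower in all naive libraries, and its log2 fold change came to -0.40 ± 0.11 (adjusted p = 0.0353). The call was lost on leaving out any single naive library (adjusted p = 0.0766 to 0.108). It was also lost with no low-count filter (0.101), with no line term (0.0605) and with the naive duplicates summed (0.33). TEAD2 was called under 5 of 13 alternatives, and its estimate was -0.32 without primed RH6. TEAD2 shares 319 of its 2980 exon bases with CD37 on the opposite strand, which had 100 to 234 counts, and the strand setting of the counting is not stated. WWTR1 shares 795 of 8413 exon bases with WWTR1-AS1 (5 to 21 counts) and CTGF 195 of 2339 with AL133346.1 (2 to 9 counts), both on the opposite strand.

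TEAD3 (ENSG00000007866) ranged from 25.1 to 30.4 CPM in naive and from 28.2 to 29.8 CPM in primed libraries, with no call for the log2 fold change of -0.08 ± 0.12 (adjusted p = 0.647).

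TEAD4 (ENSG00000197905) had 28.3 and 27.6 CPM in naive RH6 and 10.96 and 11.7 CPM in naive RH5, against 11.6 CPM in primed RH6 and 18.8 CPM in primed RH5. It was higher in naive than in primed cells of RH6 and lower in those of RH5, and the groups overlapped. The log2 fold change reached 1.27 ± 0.16 in RH6 cells (adjusted p = 2.17e-04). In RH5 cells it stood at -0.73 ± 0.16 (adjusted p = 0.00579), a call lost with DESeq2 (0.0564). The estimate over both lines, 0.18 ± 0.41, was not called (adjusted p = 0.787). Leaving out primed RH6 made it -0.72, and leaving out primed RH5 made it 1.30, since each then holds the effect of 1 line.

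Per kilobase of exon, TEAD1 was the most abundant TEAD gene in every library and made up a larger share of the family in naive cells. Its share of the summed CPM per kb was 57.1% and 53.9% in naive RH6 and 51.0% and 50% in naive RH5, against 40.8% in primed RH6 and 34.1% in primed RH5. The share of TEAD2 was 15.2% to 21.5% in naive libraries, against 30.8% in primed RH6 and 28.2% in primed RH5. TEAD4 held 16.5% and 17.9% in naive RH6 and 9.31% and 10.1% in naive RH5, against 10.1% in primed RH6 and 17.3% in primed RH5. These shares are descriptions, and the exon lengths come from another annotation than the counts.

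**Figure D2:**
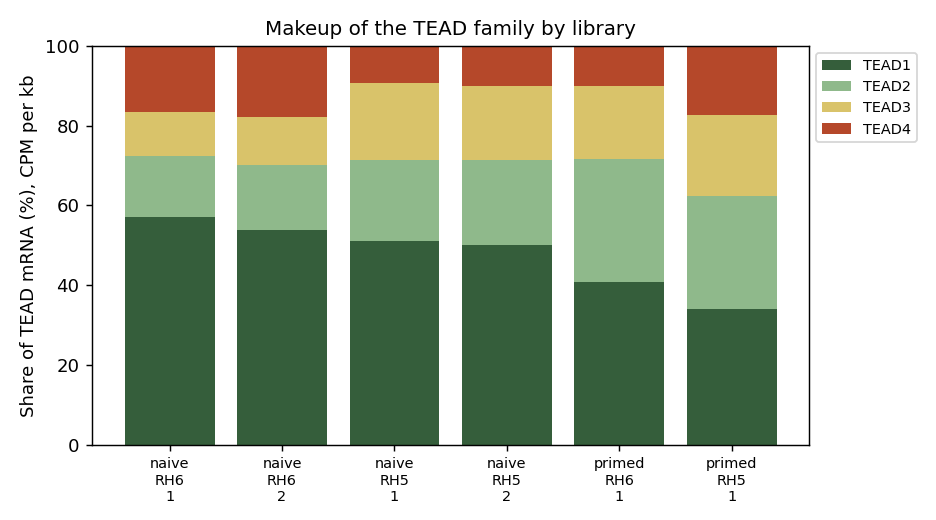
Stacked bars give, for each library, the percentage of the summed CPM per kb of the 4 TEAD genes held by each. TEAD1 holds 50% to 57.1% in naive libraries, against 34.1% and 40.8% in primed ones.

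Among the targets, AMOTL2 (ENSG00000114019), an angiomotin family protein that holds YAP in the cytoplasm, changed most. It had 163 and 180 CPM in naive RH6 and 249 and 257 CPM in naive RH5, against 57.8 CPM in primed RH6 and 61.9 CPM in primed RH5. The naive and primed values lay far apart in both lines. The log2 fold change was 1.80 ± 0.14 (adjusted p = 3.55e-04), and AMOTL2 was called under all 13 alternatives.

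CTGF (ENSG00000118523) encodes a secreted protein of the extracellular matrix that is a standard readout of YAP and TEAD activity. It had 274 and 272 CPM in naive RH6 and 598 and 622 CPM in naive RH5, against 158 CPM in primed RH6 and 176 CPM in primed RH5. The naive RH5 libraries stood well above those of naive RH6, and both stood above the primed libraries. The log2 fold change over both lines was 1.26 ± 0.23 (adjusted p = 0.00793). Leaving out primed RH5, which leaves the effect of RH6 alone, gave 0.82. The call was lost with no line term (adjusted p = 0.0505) and with the naive duplicates summed (0.0608).

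CYR61 (ENSG00000142871), a secreted protein of the same CCN family, followed the same order among naive cells. It had 211 and 228 CPM in naive RH6 and 440 and 495 CPM in naive RH5, against 123 CPM in primed RH6 and 182 CPM in primed RH5. The lowest naive value, in RH6, was close to the primed RH5 value. Its log2 fold change was 1.09 ± 0.15 (adjusted p = 0.0028), a call lost with no line term (0.0861). Per kilobase of exon, CTGF and CYR61 had the highest and second highest median level of the 10 genes, at 117 and 89.3 CPM per kb. The lowest medians were those of WWTR1, at 7.29 CPM per kb, and TEAD4, at 6.71 CPM per kb, but TEAD4 stood above WWTR1, TEAD2 and TEAD3 in both naive RH6 libraries.

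LATS2 (ENSG00000150457), the kinase that inhibits YAP, had 88.9 and 86.2 CPM in naive RH6 and 115 and 113 CPM in naive RH5, against 65.3 CPM in primed RH6 and 49.6 CPM in primed RH5. Every naive library exceeded both primed ones, and the log2 fold change came to 0.79 ± 0.18 (adjusted p = 0.0188). LATS2 was no longer called without naive RH5 replicate 1 (adjusted p = 0.0607) or replicate 2 (0.0533), or with the naive duplicates summed (0.119). Its estimate was 1.20 without primed RH6 and 0.45 without primed RH5.

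The next comparison asked whether the state effect held in each line and whether it differed between them. In RH6, 8 genes were higher and 1 lower in naive cells, against 16.4% and 17.2% of all genes (33.6% in all), and TEAD3 was the one not called. With DESeq2 the number called in RH6 was 6, in place of 9, without YAP1 and also without TEAD2 (adjusted p = 0.127) and LATS2 (0.0548). DESeq2 called 4003 of all genes in RH6, in place of 6528. LATS2 in RH6 was not called with upper-quartile factors either (0.0516). In RH5, 5 were higher (TEAD1, CTGF, CYR61, AMOTL2 and LATS2) and 1 lower (TEAD4), against 16.5% and 17% of all genes (33.5% in all). WWTR1, at 0.37 ± 0.15, and TEAD2, at -0.32 ± 0.13, were not called in RH5 (adjusted p = 0.0798 and 0.0799). TEAD2 was called there with upper-quartile factors (0.0389). The difference of their effect between the lines was not called (adjusted p = 0.507 for WWTR1 and 0.658 for TEAD2). With 1 primed library per line, the spread in these tests came from the naive duplicates alone.

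The difference of the effect between the lines was called for 3 of the 10 genes, 1 higher and 2 lower, against 12% of all genes tested, 5.86% higher and 6.16% lower. The state effect on TEAD4 was higher in RH6 than in RH5 by 1.99 ± 0.23 on the log2 scale (adjusted p = 4.33e-04). CTGF went the other way. Its effect was 0.79 ± 0.11 in RH6 and 1.80 ± 0.12 in RH5, a difference of -1.01 ± 0.16 (adjusted p = 0.00252). LATS2 had 0.42 ± 0.12 in RH6 and 1.20 ± 0.12 in RH5, a difference of -0.77 ± 0.16 (adjusted p = 0.0131). For CYR61 the difference was -0.52 ± 0.17 (adjusted p = 0.0834) and for AMOTL2 -0.46 ± 0.17 (adjusted p = 0.109). CYR61 was called with no low-count filter (adjusted p = 0.0468), which brought the count to 4. In that fit 3267 of all genes were called, in place of 2337. Without naive RH6 replicate 2, which leaves 1 library in that group, the differences were -0.57 for CYR61 and -0.53 for AMOTL2.

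**Figure D3:**
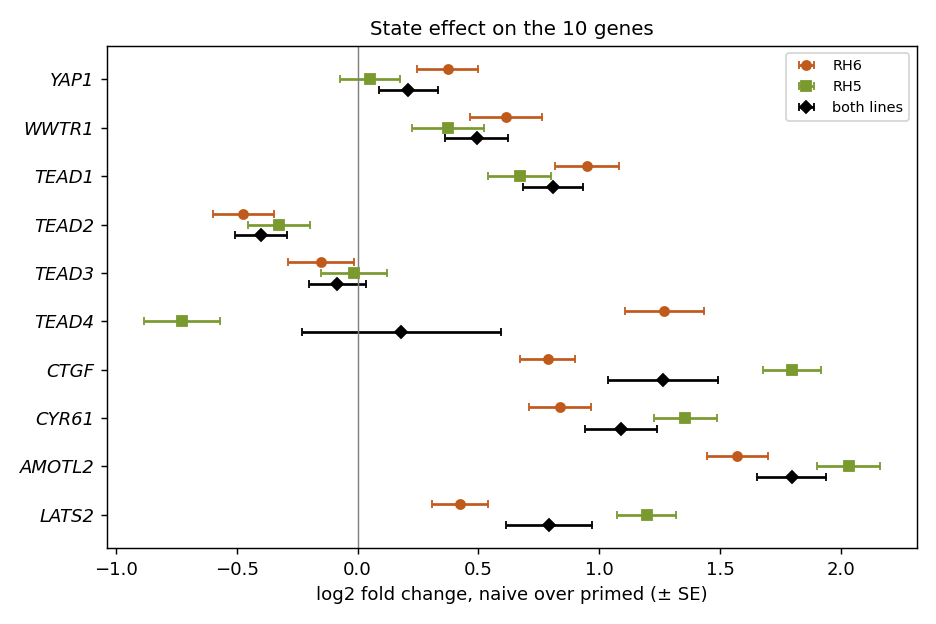
Points give the log2 fold change of naive over primed cells for each gene in RH6 (circles), in RH5 (squares) and over both lines (diamonds), with bars of 1 SE. TEAD4 lies at 1.27 in RH6 and -0.73 in RH5, and the 4 target genes lie further right in RH5.

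Naive RH6 was then compared with naive RH5, the groups that both had duplicates. These libraries also enter the comparison of state effects above. Naive RH6 was at passage 10 and naive RH5 at passage 17, so line and passage cannot be told apart here. Of the 10 genes, 2 were higher and 4 lower in naive RH6, against 12% and 13.5% of all genes (25.5% in all). TEAD4 was higher by 1.30 ± 0.13 on the log2 scale (adjusted p = 7.18e-05) and TEAD1 by 0.62 ± 0.10 (adjusted p = 0.0017). All 4 targets were lower in naive RH6. The log2 fold change was -1.16 ± 0.09 for CTGF, -1.09 ± 0.10 for CYR61, -0.56 ± 0.09 for AMOTL2 and -0.38 ± 0.09 for LATS2 (adjusted p = 1.55e-05 to 0.0138). YAP1, at 0.07 ± 0.10, and WWTR1, at 0.10 ± 0.12, were not called (adjusted p = 0.684 and 0.593), and both signs turned when single naive libraries were left out.

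Immediate early genes, which cells switch on within minutes of a stimulus and which share stimuli with CTGF and CYR61, moved with the targets between the naive lines. Of 11 such genes, 10 were lower in naive RH6 than in naive RH5 and 0 were higher, against 13.5% and 12% of all genes tested. Their median log2 fold change was -1.58, against -0.0023 over all genes tested. EGR1 had 36.9 and 34.2 CPM in naive RH6, against 264 and 305 CPM in naive RH5, and was chosen after its values were seen. Over both lines 4 of the 11 rose in naive cells and 0 fell, against 12.1% and 13.6% of all genes tested. IER3 rose by 2.34 ± 0.14, JUN by 1.58 ± 0.19 (not called with no line term, adjusted p = 0.0656) and ATF3 by 1.51 ± 0.11, and DUSP1, named after its values were seen, by 0.69 ± 0.20. Within RH6, 3 rose and 6 fell, against 16.4% and 17.2% of all genes tested. Within RH5, 10 rose and 0 fell, against 16.5% and 17% of all genes tested. Over both lines 10 were higher without primed RH6, and 6 were lower without primed RH5. The part of this difference in the result for CTGF and CYR61 was not tested.

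**Figure D4:**
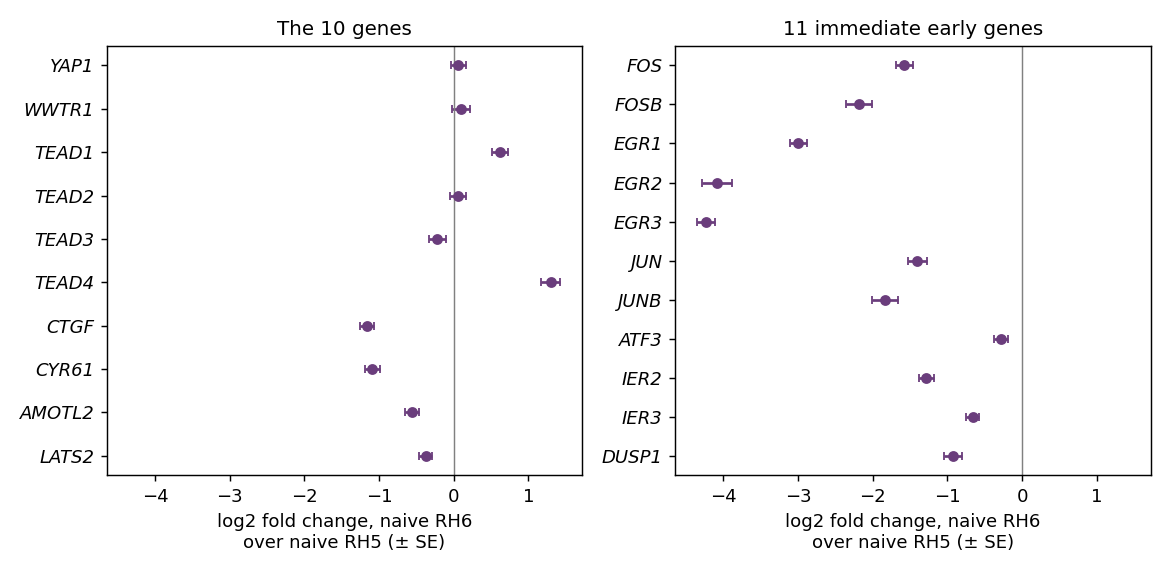
Points give the log2 fold change of naive RH6 over naive RH5 cells with bars of 1 SE, for the 10 genes (left) and for 11 immediate early genes (right). CTGF, at -1.16, and CYR61, at -1.09, lie left of 0, as do all 11 immediate early genes, of which 10 were called.

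Further targets of YAP and TAZ were taken from a known signature that also holds CTGF, CYR61, AMOTL2 and LATS2. Of its 18 other genes, 17 were tested, and 10 rose and 3 fell in naive cells, against 12.1% and 13.6% of all genes tested, with a median log2 fold change of 0.73. ANKRD1, an ankyrin repeat protein of muscle and a common YAP readout, had 305 and 342 CPM in naive RH6 and 294 and 299 CPM in naive RH5, against 16.2 CPM in primed RH6 and 31.6 CPM in primed RH5. This was a rise of 3.73 ± 0.27 in log2 units (adjusted p = 2.68e-04), larger than that of any of the 10 genes. F3, which encodes tissue factor, rose by 3.04 ± 0.28 and CCDC80, a secreted matrix protein, by 2.88 ± 0.15. The 3 that fell were chosen after their values were seen. NT5E, an ectonucleotidase, had a log2 fold change of -2.83 ± 0.37, IGFBP3, which binds insulin-like growth factors, of -2.52 ± 0.12 and the receptor kinase AXL of -0.65 ± 0.17. NT5E was low throughout, with 121 counts in all. It had 0.224 to 0.736 CPM in naive libraries, against 3.42 CPM in primed RH6 and 3.19 CPM in primed RH5. Without naive RH5 replicate 1 the number higher was 6, and without primed RH6 the number lower was 5.

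**Figure D5:**
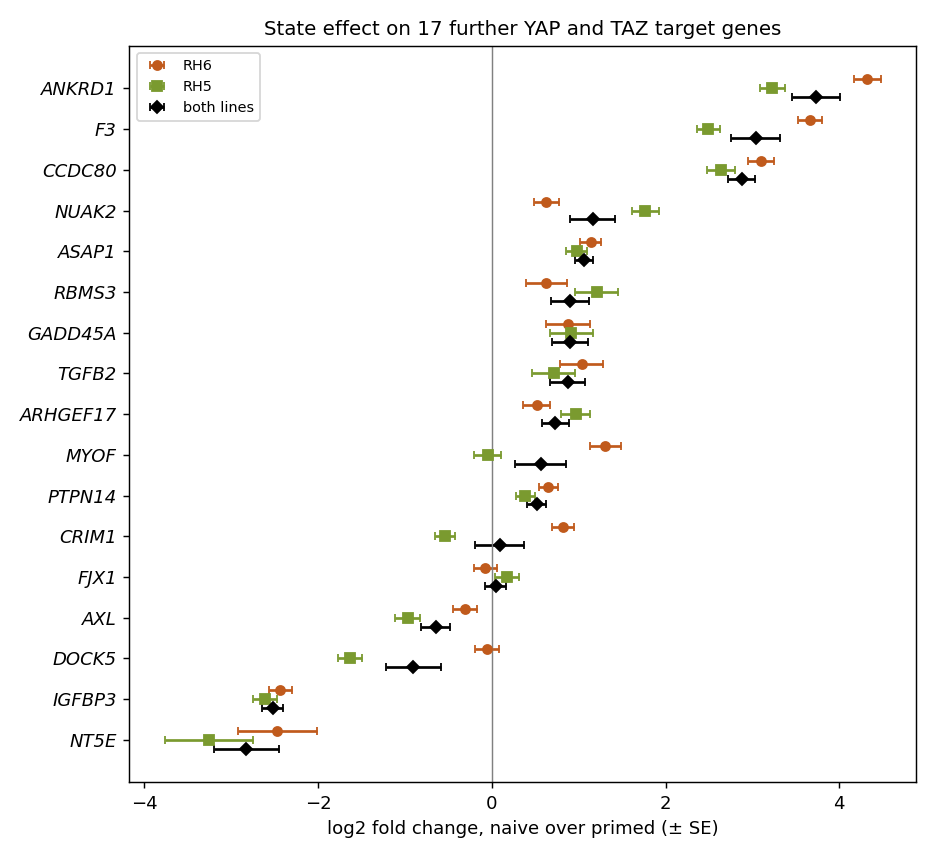
Points give the log2 fold change of naive over primed cells for the 17 further YAP and TAZ target genes that were tested, in RH6 (circles), in RH5 (squares) and over both lines (diamonds), with bars of 1 SE. ANKRD1, F3 and CCDC80 lie between 2.49 and 4.32 in both lines, and IGFBP3 and NT5E between -2.44 and -3.25.

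Of 24 genes of the kinase cascade and its scaffolds, 8 rose and 0 fell, against 12.1% and 13.6% of all genes tested, with a median log2 fold change of 0.24. PTPN14 is in this list and among the further targets above, and it is counted as higher in both. AMOTL1, a paralog of AMOTL2, rose by 1.48 ± 0.16, WWC3, a scaffold of the KIBRA family, by 0.83 ± 0.21 and FRMD6, a FERM domain protein upstream of the kinases, by 0.78 ± 0.13. The number higher was 5 without naive RH5 replicate 1, and without primed RH6 3 genes of this list fell. WWC3 was at 1.33 without primed RH6 and 0.41 without primed RH5, and its call was lost without any single naive library (adjusted p = 0.0524 to 0.0766) and with no line term (0.0767). The core kinase gene LATS1 had a log2 fold change of -0.27 ± 0.12 and STK4 of 0.07 ± 0.09, and neither was called (adjusted p = 0.141 and 0.655). The core kinase gene STK3 was called higher, at 0.64 ± 0.13 (adjusted p = 0.014). In RH5 alone LATS1 was called lower, at -0.45 ± 0.12 (adjusted p = 0.0132). These kinase genes were chosen after their values were seen.

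The vestigial-like proteins bind TEAD in place of YAP. VGLL3 fell, at -0.59 ± 0.13, VGLL4, which represses TEAD, rose by 0.43 ± 0.13, and VGLL1 and VGLL2 had 9 and 37 counts in all and were not tested. VGLL3 was at -0.36 without primed RH6. Its call was lost without naive RH6 replicate 1 or 2 or naive RH5 replicate 1 (adjusted p = 0.0568 to 0.0636), and that of VGLL4 without any single naive library or primed RH5 (0.0548 to 0.13). Of the other CCN genes, WISP1 (CCN4) rose by 5.01 ± 0.33, with 4.32 to 10.03 CPM in naive libraries, against 0.268 CPM in primed RH6 and 0.145 CPM in primed RH5. NOV (CCN3), at 0.70 ± 0.33, was not called, and WISP2 and WISP3 had 7 and 23 counts in all and were not tested.

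Cytoskeletal genes driven by SRF and its MRTF coactivators, a programme that also raises CTGF and CYR61, rose in 8 of 12 and fell in 0, against 12.1% and 13.6% of all genes tested, with a median log2 fold change of 0.69. Smooth muscle actin ACTA2 rose by 3.16 ± 0.31, TAGLN by 1.75 ± 0.15 and the myosin light chain MYL9 by 1.503 ± 0.13. ACTB, counted among the 8 and named after its values were seen, lay at the threshold (adjusted p = 0.05), and the number was 5 without naive RH5 replicate 1.

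Markers of other cell types were counted in the same comparison, in which 12.1% of all genes tested were higher and 13.6% lower. Of 11 tested fibroblast genes, 8 rose and 1 fell, with a median log2 fold change of 2.38. COL3A1 rose by 4.33 ± 0.24, MMP2 by 3.16 ± 0.16 and COL5A1 by 2.90 ± 0.18. The gene that fell, named after its values were seen, was THY1 (-1.37 ± 0.32), whose call was lost without naive RH6 replicate 1 or either naive RH5 replicate. The summed level of the list was 1403 and 1180 CPM in naive RH6 and 730 and 757 CPM in naive RH5, against 326 CPM in primed RH6 and 324 CPM in primed RH5. The fibroblast genes DCN and FAP were at 0.598 CPM or less in every library. Of 10 tested trophectoderm genes, 6 rose and 1 fell, with a median of 1.57. HAND1 rose by 6.67 ± 0.23 and GATA2 by 2.29 ± 0.59, which was 3.88 without primed RH6 and 1.23 without primed RH5. GATA2 was not called without naive RH6 replicate 1 (adjusted p = 0.0874), naive RH5 replicate 1 (0.0738) or naive RH5 replicate 2 (0.0668). CDX2, also called higher, had 3.24 to 7.14 CPM in naive libraries, against 0 CPM in primed RH6 and 0.217 CPM in primed RH5. KRT7, named after its values were seen, fell, at -1.11 ± 0.22, and was not called without naive RH6 replicate 2. TFAP2A, likewise named with its values known, fell in RH6 (-2.125 ± 0.151) and rose in RH5 (2.116 ± 0.161). Both changes were called, while the joint estimate for RH6 and RH5, -0.46 ± 0.903, was not. Its difference between the lines was -4.241 ± 0.222. In RH6 alone 7 genes of this list rose and 2 fell, against 16.4% and 17.2% of all genes tested. In RH5 alone 7 rose and 1 fell, against 16.5% and 17%. The trophectoderm sum was 2605 to 2882 CPM in naive libraries, against 588 CPM in primed RH6 and 1038 CPM in primed RH5, while ELF5 and VGLL1 were at 0.448 CPM or less in all. Most of this sum in every library was the keratin gene KRT8, named after its values were seen. KRT8 had 2000 to 2209 CPM in naive libraries, against 392 CPM in primed RH6 and 815 CPM in primed RH5. KRT18, another keratin gene, had 347.5 to 405.7 CPM in naive libraries.

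Of 8 mesendoderm genes 2 rose and 0 fell, with a median of 1.71, and the number called is near the share over all genes tested, 25.7%. T rose by 5.34 ± 0.47 and MIXL1 by 5.01 ± 0.22. In RH6 alone 8 were higher and 0 lower, against 16.4% and 17.2% of all genes tested. In RH5 alone 4 were higher and 3 lower, against 16.5% and 17%. The 3 lower in RH5, named after their values were seen, were SOX17 (-3.68 ± 0.43), FOXA2 (-1.85 ± 0.36) and GATA6 (-0.695 ± 0.18). SOX17 and FOXA2 were at 7.895 CPM or less in every library. The sum of the list was 187 to 304 CPM in naive libraries, against 10.1 CPM in primed RH6 and 72.8 CPM in primed RH5. Of 7 neural genes 5 fell and 0 rose, with a median of -2.98. SIX3 stood at -6.37 ± 0.41 and PAX6 at -3.95 ± 0.34. RAX, also called lower, had at most 0.0736 CPM in naive libraries, against 9.93 CPM in primed RH6 and 1.67 CPM in primed RH5. LHX2, named after its values were seen, fell as well, at -2.51 ± 0.50. A neural gene was higher without naive RH6 replicate 1 or primed RH6. Of 7 genes of pluripotent cells 3 fell and 0 rose, with a median of -0.27, SOX2 at -1.33 ± 0.14, SALL4 at -0.75 ± 0.14 and DPPA4 at -0.66 ± 0.17. DPPA4 was not called without any single naive library or primed RH5 (adjusted p = 0.051 to 0.139), SALL4 was at -0.42 without primed RH5 and not called with no line term (0.104), and 3 genes of the list were higher without primed RH5. Of 5 tested naive-state genes 3 rose and 0 fell, KLF17 (33 counts in all), DPPA3 by 1.80 ± 0.39 and DNMT3L by 5.61 ± 0.27. KLF4, at -0.23 ± 0.17, and TFCP2L1, at -0.09 ± 0.21, were not called. ESRRB and KHDC1L had 24 and 2 counts in all and were not tested. KLF17 was not called with DESeq2 (adjusted p = 0.055), limma-voom (0.0737) or no line term (0.157), nor without naive RH6 replicate 2 (0.0534) or primed RH5 (0.412). The part of other cell types in the results for the 10 genes was not tested.

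The genes most like each member in pattern were found by the root mean square difference of centred log2 CPM over the 6 libraries, among 11840 genes with a mean above 5 CPM. For CTGF they included PCSK6 (0.0572) and CDC25B (0.0843), and for CYR61 they were CHM (0.115), PCSK6 (0.117) and MAGI3 (0.118). For AMOTL2 they were SPSB4 (0.0655), PXDC1 (0.0811) and KLF6 (0.129), and for LATS2 B3GALNT1 (0.0601), IGDCC3 (0.0684) and HKR1 (0.0771). For TEAD1 they were TIMP3 (0.0566), SYK (0.0797) and FAM20A (0.0823), and for TEAD4 SIAH2 (0.1), DDAH1 (0.104) and TTC39B (0.112). Within the set, CTGF and CYR61 were each other's nearest, at 0.163. The other 4 genes spanned no more than 1 log2 unit and were not matched.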

How the data were processed

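The authors deposited raw read counts per gene, not normalized, for 6 libraries in 1 table. Per the submitters' processing notes, FastQC, STAR 2.4.0a, featureCounts 1.4.5-p1 of Subread and DESeq2 were used. Those notes name the builds hg19 and GRCh37.p5 too, without saying which step used which. Per the labels' protocols, a stranded total RNA kit and paired reads were used, while the molecule field says polyA RNA. The annotation and the strand setting were not given in the sources used here. Where genes overlap on opposite strands, it is therefore not known whether their reads were counted apart.

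Counts were tested with edgeR 4.0.16 (R 4.3.3) by its quasi-likelihood test with TMM, after filterByExpr by state (minimum count 10, minimum total 15), with Benjamini-Hochberg adjustment over all genes tested, two-sided. Naive against primed over both lines used all 6 libraries with the line as covariate (3 residual degrees of freedom). The other comparisons were contrasts of 1 mean per group (2 residual degrees of freedom), where the spread of the naive duplicates stands in for that of the single primed libraries. SE is the log2 fold change divided by the square root of F. Chi-square per gene between duplicates was 9.22 (naive RH6) and 5.76 (naive RH5), above the counting noise of about 1. The duplicates were kept apart in the main fits, but these values do not show that they are separate cultures. The scripts were tested on simulated data. Alternatives were DESeq2 1.42.0, limma-voom (limma 3.58.1), other scaling factors, no filter, no line term, summed duplicates, a replicate block and leaving out libraries.

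All 10 members were named whatever their result. Of each further list, the 3 called genes with the largest change over both lines were named, or all called ones where 5 or fewer were tested. Members and lists were chosen with earlier results of these data known. Some genes that these rules select are not reported here.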

Additional observations from a re-analysis of the deposited data

Results flagged for a closer look

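A state effect that differed between RH6 and RH5, by the test of the difference itself, was found for 3 of the 10 genes. Over all genes tested, 12% were called in that test. Most of the further genes below were named because their state effect was called. The effect in RH6 minus that in RH5 was 1.99 for TEAD4, -1.01 for CTGF and -0.77 for LATS2 on the log2 scale. Among the further genes named, 55 examined in all with the 10, it was called for WWC3 (-0.93), AMOTL1 (0.63), ANKRD1 (1.09), F3 (1.17), TAGLN (0.56), DPPA4 (0.76), SALL4 (0.59), COL5A1 (0.64), GATA2 (-2.67), T (2.47) and PAX6 (-1.58), and, of the genes named after their values were seen, for EGR1 (-3.14), DUSP1 (-0.79) and THY1 (1.51). Each of these differences rests on 1 primed library per line. Genes named only to describe a list, such as KRT8, TFAP2A, STK3 and PTPN14, were not among the 55. The passage numbers were 10 and 20 for naive and primed RH6 and 17 and 16 for naive and primed RH5, and their part was not tested.

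RAX met the criterion of Dixon's test among the 4 naive libraries, with a gap of 0.953 of the range between its lowest library and the next. These values were 1 count in each of 3 libraries and 0 in naive RH5 replicate 2, so a single count makes the gap, and nothing is read from it. RAX was the only one of the 55 genes examined to meet the criterion, which chance alone meets in about 1 in 20 groups.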

How the results depend on the processing

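Over 500 recomputed effects of the 10 genes, 454 kept their direction and their side of the threshold, 30 lost a call, 9 gained one and 7 turned sign. The number of the 10 genes called over both lines, 7, was 3 with no line term and 2 with the naive duplicates summed. It was 4 to 5 when a naive library was left out, lowest without naive RH5 replicate 1. In the same fits the calls over all genes, 4996, were 3556 with no line term, 1127 with summed duplicates and 2961 to 3345 without a naive library. Summing leaves 4 libraries. The number whose effect differed between lines, 3, was 3 with DESeq2 and 4 with no low-count filter. Such calls over all genes, 2337, were 1267 with DESeq2 and 3267 with no low-count filter. With single libraries left out, TEAD4 over both lines ranged from -0.72 without primed RH6 to 1.30 without primed RH5. The other turned signs were near 0. TEAD3 in RH5 ranged from -0.059 to 0.046, positive without naive RH5 replicate 2. Between the naive lines WWTR1 ranged from -0.040 to 0.21 (-0.028 without naive RH6 replicate 1) and YAP1 from -0.049 to 0.17 (-0.014 without naive RH5 replicate 2). YAP1 in RH5 was -0.014 with upper-quartile factors. The causes were not tested.

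Over all genes, 4996 calls over both lines became 1127 with summed duplicates and 2961 to 3345 without a naive library. DESeq2 called 4003 in place of 6528 in RH6, 3905 in place of 6506 in RH5, 1267 in place of 2337 for the difference between lines and 2856 in place of 4952 between the naive lines. With the duplicates summed, 4 of the further targets, 1 of the kinase cascade genes and 3 of the cytoskeletal genes were higher. Replicate numbers are shared only by the naive lines, and nothing says that they mark a culture or day. Their deviations correlated at 0.14 across genes. With a replicate block, 6 of the 10 genes were called between the naive lines, as without it, and 6499 genes in all.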
